A study of Mus musculus with 20 samples.

Results

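Abdominal skin of mice fed a high fat diet (HFD) was compared after imiquimod cream (IMQ) and after vehicle cream. The comparison holds 10 of the 20 arrays of the series: 5 labelled HFD-IMQ and 5 labelled HFD-vehicle, 1 array per mouse, with groups taken from the sample titles. Genes were represented by array features that carry exactly 1 gene symbol, and where a gene had several the feature with the highest mean over all 20 arrays was used, which gave 22180 genes. All mice were C57/B6 and 9 weeks old, and both groups ate the high fat diet. The sources used here do not say how long they had eaten it or what it contained. In the HFD-IMQ group 62.5 mg of Aldara, a 5% imiquimod cream, was put on shaved abdominal skin each day for 5 days. HFD-vehicle mice received vehicle cream on the same schedule, and skin was taken 24 h after the end of treatment. The other 10 arrays are 5 mice on control diet (CD) with imiquimod (CD-IMQ) and 5 on control diet with vehicle (CD-vehicle), and they enter only where the effect of imiquimod is set against that on the other diet.

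Imiquimod is an agonist of Toll-like receptor 7, an endosomal receptor for single-stranded RNA that signals through MyD88 in macrophages and dendritic cells. Repeated application to mouse skin thickens the epidermis, draws in leukocytes and is widely used as a model of psoriasis-like inflammation. In such skin keratinocytes switch to wound keratins, calprotectin, small proline-rich proteins and interleukin-36, while hair follicles, which alternate between growth and rest, carry their own keratins in the inner root sheath and the hair shaft.

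Values are log2 signals, in which 1 unit is a 2-fold difference. Array medians lay between 2.86 and 3.04, and a group mean no higher than this counts as near background, where the measured size of a change is not reliable. Among the genes named below as called this was so in at least 1 of both groups for Ccl3, Chil3, Clec4d, Clec4e, Defb14, Defb3, Dsg4, Fbp1, Fcgr4, Gzma, Hoxc13, Il19, Krt26, Krt71, Krt72, Krt75, Krtap4-2, Lce3f, Mmp8, Msx2, Padi3, Prr9, Sprr2g, Sprr2j-ps, Tchh and Tmprss11a. Keratinocyte genes marked the tissue as skin in all 10 arrays: Krt14, the basal keratin, lay between 8.81 and 10.51. Of 13 mammary epithelium genes 7 were near background in both groups and 0 were called by limma, 2 having an unadjusted p below 0.05. Skeletal muscle and adipocyte transcripts were present, with mean list levels of 5.83 to 7.78 for muscle and 6.17 to 7.95 for fat. In bulk tissue fewer cells of a type and less RNA per cell cannot be told apart, and this holds for every cell type list below.

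Single arrays stood apart before any test. HFD-vehicle 3 held 42.8% of the summed squared distance of its group from the group mean, and HFD-IMQ 4 held 30.0% of that of its group. HFD-vehicle 3 had the highest hair follicle levels of the 10 mice. Its mean over 51 keratin-associated protein genes was 6.88, against 2.42 to 3.42 in the other vehicle mice. It also had the lowest macrophage list level, 5.51 against 5.89 to 6.19. HFD-IMQ 1 had the highest inner root sheath level of its group, 4.07 against 2.56 to 2.90. HFD-IMQ 4 and HFD-IMQ 3 carried a brown fat signal: Ucp1, the uncoupling protein of brown adipocytes, measured 2.76, 2.62, 8.14, 9.58 and 3.18 in the 5 IMQ mice and 2.23 to 2.79 in vehicle mice. Results that rest on these arrays are given with and without them.

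In the limma fit 809 genes were higher and 497 lower after imiquimod on high fat diet at an adjusted p below 0.05, which is 3.65% and 2.24% of the genes tested and 5.89% in both directions. The median change over all genes was -0.00067. A change of at least 1 log2 unit was measured for 200 of the higher and 155 of the lower genes, and one of at least 3 units for 16 and 18. All 5 values of one group lay beyond all 5 of the other for 603 of the higher and 355 of the lower genes, and 3.67% and 2.39% of all genes, 6.06% in both directions, separated in this way. Leaving out 1 HFD array at a time gave 990 to 1343 called genes. Without HFD-vehicle 3 704 genes were higher and 459 lower, of which 640 and 387 were the same genes. Without HFD-IMQ 4 the numbers were 832 and 511, with 735 and 414 shared.

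Promoters of genes that moved together are shown first, since these families are near-identical neighbours or close relatives. The 250 bases before the RefSeq transcription start (GRCm38.p6) are printed for Sprr2d and Sprr2e, cornified envelope genes that rose, with capitals for matches to the AP-1 motif TGANTCA, and for Krt71 and Krt73, inner root sheath keratins that fell, with capitals for matches to the GATA motif AGATAA.
Sprr2d: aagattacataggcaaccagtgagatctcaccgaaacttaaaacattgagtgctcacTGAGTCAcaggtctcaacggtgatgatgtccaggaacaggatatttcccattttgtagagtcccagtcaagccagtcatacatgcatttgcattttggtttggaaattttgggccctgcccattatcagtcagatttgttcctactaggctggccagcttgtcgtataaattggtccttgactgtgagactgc
Sprr2e: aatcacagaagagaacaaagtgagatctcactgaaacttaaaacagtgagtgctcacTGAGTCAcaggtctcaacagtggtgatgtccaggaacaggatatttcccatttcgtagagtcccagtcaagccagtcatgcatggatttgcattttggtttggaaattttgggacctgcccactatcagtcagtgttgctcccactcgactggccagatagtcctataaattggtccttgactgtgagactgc
Krt71: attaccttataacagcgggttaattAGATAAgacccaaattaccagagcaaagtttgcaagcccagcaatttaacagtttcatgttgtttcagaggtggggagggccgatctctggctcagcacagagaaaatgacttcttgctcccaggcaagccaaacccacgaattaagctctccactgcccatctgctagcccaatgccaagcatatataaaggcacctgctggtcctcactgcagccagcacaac
Krt73: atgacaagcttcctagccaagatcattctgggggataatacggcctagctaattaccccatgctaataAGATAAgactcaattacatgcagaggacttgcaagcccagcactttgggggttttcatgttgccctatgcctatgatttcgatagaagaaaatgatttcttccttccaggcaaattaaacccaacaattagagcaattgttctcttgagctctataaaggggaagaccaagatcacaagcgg
Sprr2d is the window chr3:92338890-92339139 on the plus strand and Sprr2e chr3:92351893-92352142 on the plus strand. Krt71 is chr15:101743098-101743347 and Krt73 chr15:101802361-101802610, both on the minus strand, and every sequence runs 5′ to 3′ toward the start. The Sprr2d and Sprr2e windows share 220 of 250 bases, 88.0%, and hold their AP-1 match at the same place, starting 193 bases before the transcription start. In Krt71 the GATA match starts 225 bases and in Krt73 182 bases before it. Searched on both strands, TGANTCA was found in 9 of the 14 SPRR promoters listed by RefSeq, and in 6.75% of 32851 promoters of all genes. The 9 were those of Sprr1a, Sprr1b, Sprr2b, Sprr2d, Sprr2e, Sprr2f, Sprr2h, Sprr2i and Sprr2k. Not all of these genes were called higher, Sprr1a and Sprr2k being among those that were not. AGATAA was found in 5 of 9 promoters of the inner root sheath list (Krt25, Krt27, Krt71, Krt73 and Tchh) and in 9.99% of all promoters. These motifs were chosen with the sequences in view, and a match is a string of letters, not a measured site.

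Cornified envelope and wound response genes of the epidermis were among the steepest rises. Saa3, an acute-phase serum amyloid, read 5.84, 4.99, 5.14, 6.15 and 6.80 in the 5 HFD-vehicle mice and 10.96, 10.94, 11.46, 10.01 and 11.10 in the 5 HFD-IMQ mice. Every IMQ value exceeded every vehicle value by more than 3 log2 units, and the fitted change was 5.11 ± 0.34 (SE, n = 5 and 5; limma adjusted p = 2.18e-09), a 34.6-fold rise. S100a8, one subunit of calprotectin, the neutrophil and keratinocyte alarmin, was 4.39, 4.21, 4.65, 4.99 and 6.32 with vehicle and 9.70, 9.56, 10.02, 9.17 and 10.04 with IMQ. Its partner S100a9 went from 5.20, 4.53, 4.23, 5.22 and 6.30 to 9.91, 9.80, 10.10, 9.36 and 10.14. Both subunits were apart in all mice, with HFD-vehicle 5 the highest of the vehicle arrays and HFD-IMQ 4 the lowest of the IMQ arrays for each, and they rose 27.5-fold and 27.2-fold (adjusted p = 2.07e-08 and 1.32e-09). The other 9 S100 genes of a list of 11 were not called, with changes from -0.83 to 0.16, while S100a3, a hair cuticle gene held in the hair matrix list, was lower.

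**Figure D1:**
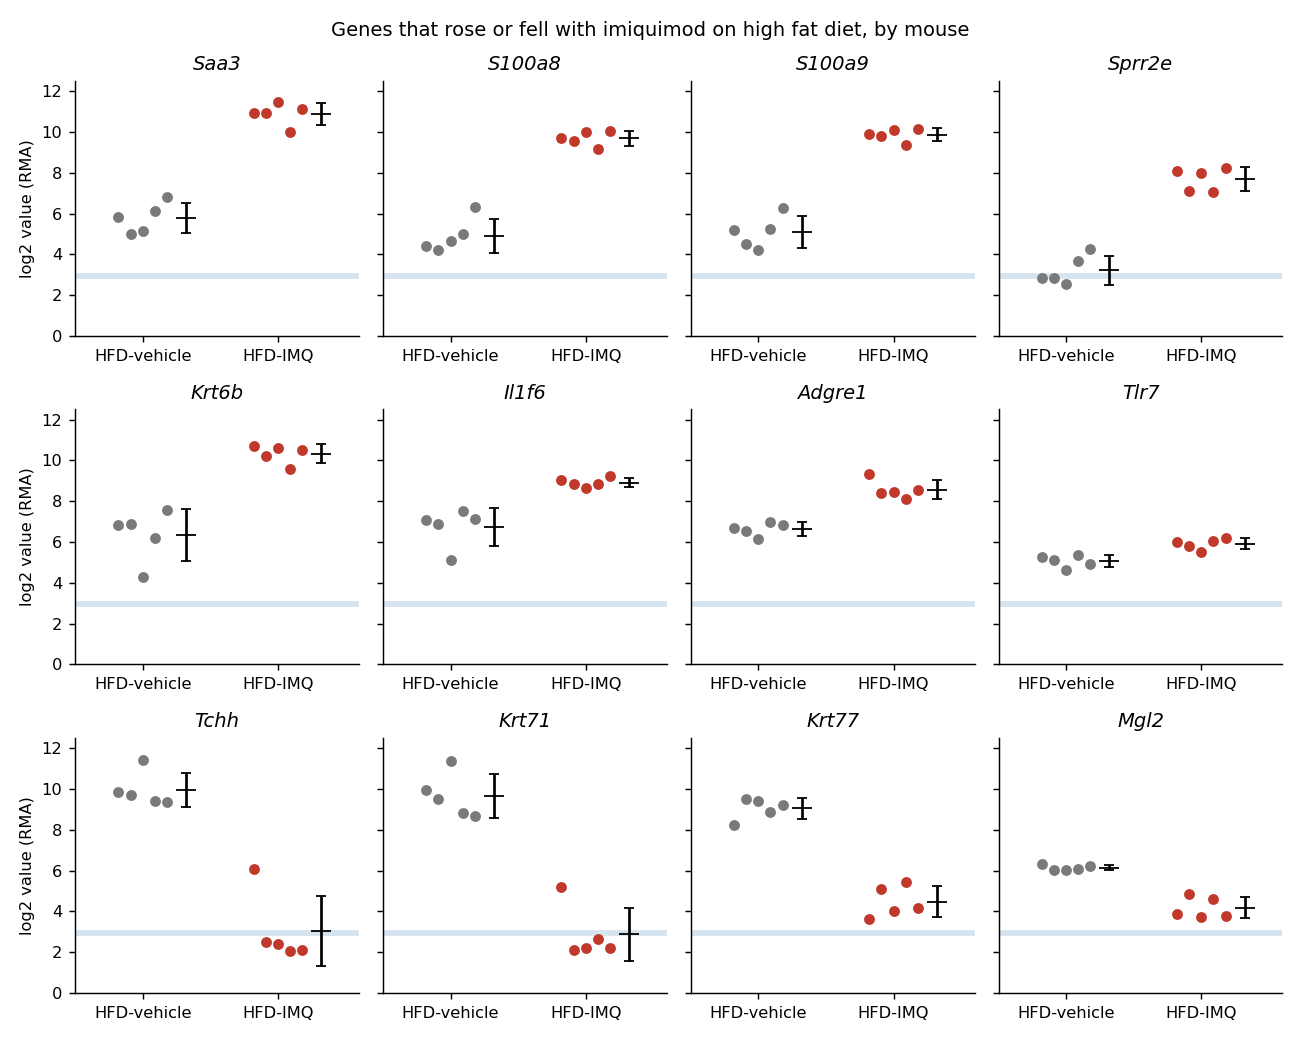
Log2 value of 12 genes in each of the 5 HFD-vehicle (grey) and 5 HFD-IMQ (red) mice, with the group mean and SD as a bar at the right of each group and the range of array medians as a blue band. The 8 genes of the upper rows are higher in every IMQ mouse than in any vehicle mouse and the 4 of the lower row are lower, with HFD-IMQ 1 the highest IMQ value for Tchh and Krt71.

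Wound keratins are the filament proteins that activated interfollicular keratinocytes make. Krt6b measured 6.82, 6.89, 4.27, 6.19 and 7.59 with vehicle and 10.72, 10.20, 10.61, 9.59 and 10.54 with IMQ. HFD-vehicle 3 was the lowest vehicle mouse, no values overlapped, and the change was 3.98 ± 0.49 (adjusted p = 1.12e-05). Krt16, the partner of Krt6, moved from 6.77, 6.72, 5.53, 6.63 and 7.11 to 9.84, 9.54, 9.81, 8.87 and 9.62. Again the groups were apart, with a change of 2.99 ± 0.42 (adjusted p = 6.51e-05). Krt6a, which is close to Krt6b in sequence so that the array may not keep them apart, was higher by 2.25 (adjusted p = 6.04e-04), although HFD-vehicle 3 at 8.74 lay above HFD-IMQ 4 at 8.35. Krt17, the fourth gene of the list, is shared with the hair follicle and was not called, at -0.66 (adjusted p = 0.367). Of 9 basal keratinocyte genes only Krt14 was called, higher by 0.95 ± 0.23 (adjusted p = 0.0127).

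Small proline-rich proteins are crosslinked into the cornified envelope, and 8 of 12 measured family members were higher, with a list median of 2.42 against -0.00067 for all genes. Sprr2e was 2.85, 2.85, 2.53, 3.67 and 4.26 in vehicle mice and 8.08, 7.09, 8.01, 7.05 and 8.25 in IMQ mice. Sprr2b was 5.02, 4.62, 2.90, 4.87 and 4.18 with vehicle and 8.79, 8.01, 8.78, 7.72 and 8.86 with IMQ. Sprr2d was 4.54, 3.79, 2.82, 5.04 and 5.07 with vehicle and 8.41, 7.90, 8.61, 7.43 and 8.87 with IMQ. No vehicle value of any of the 3 reached an IMQ value, and the changes were 4.46 ± 0.29, 4.11 ± 0.34 and 3.99 ± 0.42 (adjusted p = 1.84e-09, 6.33e-08 and 1.35e-06). Because SPRR2 genes are so alike, signal may be shared between their features. Sprr2g (3.07) and Sprr2j-ps (3.39), a pseudogene, were also higher, while Sprr1a (-0.19), Sprr3 (-0.25), Sprr4 (-1.49) and Sprr2k (0.68) did not pass. All 6 measured late cornified envelope genes of the LCE3 group, which repair-type epidermis switches on, were higher, by 2.30 to 3.96 (median 2.75). Lce3f, 2.11, 1.37, 1.66, 2.25 and 1.91 with vehicle and 6.18, 5.26, 5.92, 5.01 and 6.71 with IMQ, came up from below the array medians and was apart in all mice (3.96 ± 0.26, adjusted p = 1.84e-09). Of 11 LCE1 genes, which belong to normal terminal differentiation, 1 was called higher and 1 lower: Lce1a2 at 0.58 (adjusted p = 0.0172, and 0.056 without HFD-IMQ 3, with the call also ended by leaving out HFD-vehicle 1 or HFD-vehicle 3) and Lce1m at -1.28 (adjusted p = 0.00152). The 9 LCE1 genes that were not called all had positive changes, and the list median was 0.47.

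Terminal differentiation genes moved in both directions: of 32 measured members 8 were higher and 2 lower. Rptn, the cornified envelope protein repetin, measured 7.95, 7.38, 6.63, 8.03 and 7.51 with vehicle and 10.65, 10.12, 10.22, 10.20 and 10.76 with IMQ, a rise of 2.89 ± 0.29 (adjusted p = 7.55e-07) with no overlap. Krt77, a keratin of suprabasal epidermis and sweat ducts, went the other way, from 8.25, 9.50, 9.41, 8.85 and 9.20 to 3.62, 5.11, 4.04, 5.46 and 4.18. Every IMQ mouse lay below the lowest vehicle mouse, with a mean fall of 23.6-fold (-4.56 ± 0.39, adjusted p = 8.34e-08). Casp14, the caspase that processes filaggrin, rose by 1.51 (adjusted p = 0.00445) and Tgm3, a transglutaminase of the envelope, by 1.36 (adjusted p = 0.00604). Flg2, a filaggrin relative, fell by 1.82 on the log2 scale (adjusted p = 9.78e-04). Filaggrin (Flg, 0.62), loricrin (Lor, 0.39) and involucrin (Ivl, 0.68) did not pass. Among 18 genes of barrier lipid synthesis 6 were higher and 2 lower. Lipn, a lipase of the granular layer, rose from 3.99, 3.77, 2.91, 4.06 and 3.22 to 4.91, 4.71, 4.80, 4.87 and 5.28 (1.32 ± 0.24, adjusted p = 0.00111), and its groups did not overlap. Sdr9c7 (1.22) and Alox12b (0.97), which oxidise the acylceramides of the barrier, and the lipid transporter Abca12 (0.92) rose too, while the fatty acid elongase Elovl6 fell by 1.14 (adjusted p = 0.00424).

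Protease inhibitors and antimicrobial proteins of the epidermis included further large changes. Of 16 serpins and stefins 9 were higher and 1 lower. Csta3, a cysteine protease inhibitor, was 2.68, 3.29, 3.67, 3.13 and 5.25 in vehicle mice and 9.00, 8.12, 9.28, 7.60 and 9.34 in IMQ mice. Serpinb3a, an inhibitor related to the human squamous cell carcinoma antigens, was 5.36, 4.70, 2.72, 5.70 and 4.51 with vehicle and 8.72, 8.001, 8.87, 8.17 and 9.06 with IMQ. Neither overlapped between groups, and the changes were 5.06 ± 0.39 and 3.96 ± 0.43 (adjusted p = 1.67e-08 and 1.97e-06). Stfa2l1 (3.65), Stfa1 (2.69) and Stfa3 (2.38, chosen after its value was seen) rose as well, and these stefins are near-identical copies whose signals may not be separate. Serpina3b fell by 3.21 on the log2 scale, from 8.73, 9.15, 8.91, 8.35 and 7.55 to 4.95, 5.75, 4.36, 6.05 and 5.53 (adjusted p = 3.75e-06). Of 20 antimicrobial genes 8 were higher and 2 lower, and 5 were higher without HFD-vehicle 2. The beta-defensin Defb3 measured 1.72, 1.43, 1.58, 1.44 and 2.57 with vehicle, all below the array medians, and 6.73, 5.21, 6.69, 4.36 and 7.10 with IMQ (4.27 ± 0.40, adjusted p = 3.73e-07). Defb4 (2.52 ± 0.32, adjusted p = 2.26e-05) and Defb14 (2.20 ± 0.21, adjusted p = 5.58e-07) also rose, and so did lipocalin 2, Lcn2 (1.83, chosen after its value was seen). Defb8 moved the other way and with wide scatter, from 10.41, 8.91, 7.84, 9.91 and 9.76 to 1.72, 5.26, 3.18, 7.84 and 4.45. HFD-IMQ 4 and HFD-vehicle 3 met at 7.84 to the second decimal, HFD-IMQ 1 lay at 1.72, and the fitted change was -4.88 ± 1.04 (adjusted p = 0.00448). Gasdermin C, Gsdmc, a pore-forming protein of the upper epidermis, went from 5.58, 4.64, 3.07, 5.91 and 4.68 to 7.04, 6.41, 6.89, 6.42 and 7.39 (2.05 ± 0.41, adjusted p = 0.00263), and 2 of 8 gasdermins were higher.

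**Figure D2:**
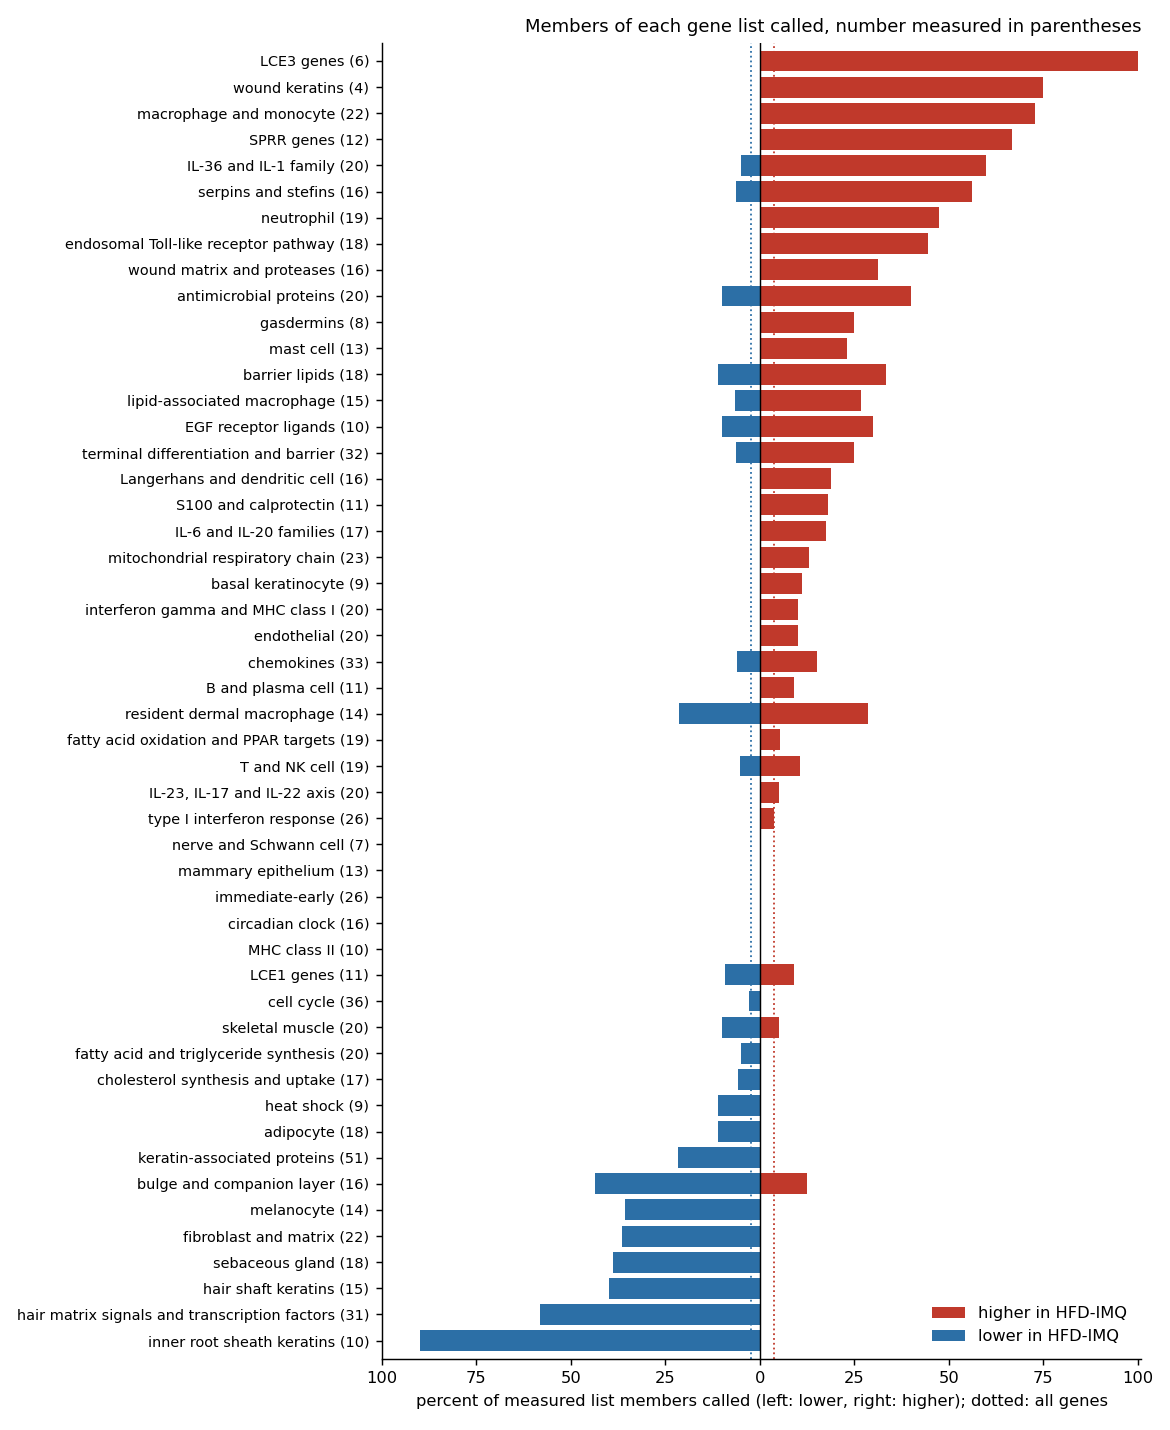
Percent of the measured members of each gene list (number in parentheses) that were called higher (red, to the right) or lower (blue, to the left) in HFD-IMQ against HFD-vehicle, with dotted lines at the 3.65% and 2.24% of all genes. LCE3 genes, wound keratins and macrophage genes extend farthest to the right and inner root sheath keratins, 9 of 10 lower, farthest to the left.

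Interleukins of the IL-1 and IL-36 families carry keratinocyte alarm signals, and 12 of 20 measured ligands, receptors and inflammasome genes were higher and 1 lower (median 0.71). With 1 HFD array left out at a time, 9 to 11 were called higher and 0 to 1 lower. Il1f6, which encodes IL-36 alpha, was 7.07, 6.89, 5.14, 7.51 and 7.13 with vehicle and 9.04, 8.83, 8.64, 8.84 and 9.24 with IMQ. Il1f9, IL-36 gamma, was 6.43, 6.09, 5.10, 6.62 and 5.97 with vehicle and 8.22, 7.98, 8.19, 8.05 and 8.54 with IMQ. Il1b was 3.81, 3.83, 4.21, 3.57 and 5.56 with vehicle and 7.41, 5.83, 7.59, 5.08 and 5.89 with IMQ. For these 3 ligands each IMQ mouse read above each vehicle mouse except for Il1b, where HFD-IMQ 4 at 5.08 lay below HFD-vehicle 5 at 5.56. The changes were 2.17 ± 0.35, 2.15 ± 0.22 and 2.16 ± 0.43 (adjusted p = 3.06e-04, 1.18e-06 and 0.00237). Il1f8, IL-36 beta, rose by 1.69, and Il1f5, the antagonist of the IL-36 receptor, by 1.23 (adjusted p = 0.00308 and 0.00313). The receptors Il1rl2 (-0.10), Il1r1 (-0.25) and Il1rap (0.25) were not called.

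The IL-23, IL-17 and IL-22 axis, the T cell pathway that psoriasis drugs block, was called in 1 of 20 members, the shared receptor chain Il10rb (0.61 ± 0.12, adjusted p = 0.00292). Il17a read 2.75, 3.10, 2.27, 2.85 and 2.67 with vehicle and 3.29, 2.59, 3.15, 2.39 and 2.84 with IMQ. Il23a read 2.07, 2.31, 2.05, 2.34 and 2.43 with vehicle and 2.34, 2.26, 2.29, 2.22 and 2.36 with IMQ, and Il22 1.01, 0.83, 1.15, 1.26 and 0.78 with vehicle and 1.18, 0.87, 1.34, 1.20 and 0.87 with IMQ. Values of the groups overlapped for all 3, at or near background, with adjusted p of 0.821, 0.896 and 0.823. Il17f, at 3.36, 3.62, 3.42, 3.34 and 3.85 with vehicle and 3.88, 3.64, 3.86, 3.62 and 4.07 with IMQ, gave 0.29 ± 0.13 (adjusted p = 0.262). Of this axis 11 members were near background in both groups, where differences are compressed. Il6 (0.00), Tnf (0.26) and Cxcl2 (0.90) did not pass either. In the IL-6 and IL-20 families 3 of 17 were higher, led by the cytokine Il19 (0.89 ± 0.20, adjusted p = 0.00824). EGF receptor ligands, growth signals of keratinocytes, formed a list of 10 with the receptors of the family, of which 3 were higher and 1 lower, with Ereg 5.75, 5.83, 5.46, 5.84 and 5.46 in vehicle and 6.50, 6.69, 6.40, 6.62 and 7.11 in IMQ mice (0.99 ± 0.14, adjusted p = 8.59e-05) and Hbegf up by 0.81. The EGF receptor itself, Egfr, was the lower gene (-0.47, adjusted p = 0.03). Its call ended in 7 of the 10 sets with 1 HFD array left out, among them the set without HFD-vehicle 3 (highest adjusted p = 0.101).

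Genes of the imiquimod receptor and its partners rose by smaller steps, in 8 of 18 members of the endosomal Toll-like receptor list (median 0.35). Tlr7 itself was 5.27, 5.10, 4.63, 5.38 and 4.94 with vehicle and 5.99, 5.79, 5.51, 6.07 and 6.19 with IMQ. Tlr13, a sensor of bacterial ribosomal RNA, was 4.91, 4.62, 3.88, 4.76 and 4.70 with vehicle and 6.64, 6.18, 6.15, 5.97 and 6.47 with IMQ. Unc93b1, which carries these receptors to the endosome, was 7.01, 6.60, 6.32, 6.68 and 6.73 with vehicle and 8.39, 7.71, 7.30, 7.65 and 7.72 with IMQ. All 3 separated without overlap, by 0.85 ± 0.17, 1.71 ± 0.16 and 1.08 ± 0.17 (adjusted p = 0.00224, 3.91e-07 and 2.29e-04), and Tlr8 by 0.87 (adjusted p = 7.33e-04). The adaptor Myd88 was not called (0.31, adjusted p = 0.122). The other 4 calls, Nfkbiz, Nfkbia, Tlr2 and Tlr9, ended when single arrays were left out, and the count fell to 4 without HFD-vehicle 2 or HFD-IMQ 1 and to 5 without HFD-vehicle 1, HFD-vehicle 4, HFD-vehicle 5 or HFD-IMQ 5. Macrophage list levels were higher in the same mice, 6.62 to 7.15 with IMQ against 5.51 to 6.19 with vehicle, and their part in these changes was not tested. The type I interferon response, which Toll-like receptor 7 can start in plasmacytoid dendritic cells, was called in 1 of 26 genes: Irf7, at 5.48, 5.32, 5.03, 5.19 and 5.39 with vehicle and 5.92, 5.83, 5.86, 6.66 and 5.90 with IMQ (0.75 ± 0.19, adjusted p = 0.0153). HFD-IMQ 4 was the highest mouse for Irf7, and the call held without HFD-vehicle 3 or without HFD-IMQ 4 but ended without both (0.53, adjusted p = 0.103). Ifit1 (-0.38), Isg15 (0.37) and Rsad2 (0.68) were not called, and of 20 interferon gamma and MHC class I genes 2 were higher, the immunoproteasome subunits Psmb8 (0.62) and Psmb10 (0.59). Psmb8 was not called without both of these arrays (0.44, adjusted p = 0.0683).

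Macrophage and monocyte genes rose in 16 of 22 cases, with a list median of 0.64. Adgre1, which encodes the classical surface antigen of mouse macrophages, was 6.71, 6.53, 6.14, 6.999 and 6.86 with vehicle and 9.35, 8.39, 8.47, 8.09 and 8.55 with IMQ. Fcgr4, an activating receptor for IgG, was 3.30, 2.50, 2.54, 2.81 and 2.88 with vehicle and 6.50, 4.20, 5.15, 4.98 and 5.50 with IMQ. Itgam, the integrin CD11b of myeloid cells, was 6.83, 6.35, 6.11, 6.56 and 6.59 with vehicle and 8.48, 7.90, 7.59, 7.35 and 7.80 with IMQ. HFD-IMQ 1 was the highest IMQ mouse for all 3 and no values overlapped, at 1.92 ± 0.18, 2.46 ± 0.30 and 1.33 ± 0.19 (adjusted p = 4.42e-07, 9.34e-06 and 8.79e-05). Ms4a7 (1.82) and the scavenger receptor Marco (1.20) followed. Over the 10 sets that leave out 1 HFD array, 11 to 16 members were called. Of 15 lipid-associated macrophage genes 4 were higher and 1 lower, with a median of 0.09. Tyrobp, the signalling adaptor of myeloid receptors, rose by 1.44 ± 0.15 (adjusted p = 1.55e-06), the fatty acid binding protein Fabp5 by 0.84, the lysosomal lipase Lipa by 0.74 and the lysosomal protease Ctss by 0.55. Cd9, a tetraspanin, was the lower gene (-0.56), and Trem2 (0.01) and Gpnmb (0.29) did not pass. The Ctss and Cd9 calls ended in 7 and 6 of the 10 sets with 1 HFD array left out, at an adjusted p of up to 0.156 and 0.106. The set without HFD-vehicle 3 was among them for both and the set without HFD-IMQ 4 for Cd9.

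Resident dermal macrophage genes split. Retnla, a product of alternatively activated macrophages, fell from 9.49, 10.14, 9.13, 9.73 and 9.80 to 6.66, 7.67, 6.62, 8.52 and 7.61. Mgl2, the lectin CD301b, fell from 6.30, 6.02, 6.03, 6.10 and 6.20 to 3.89, 4.83, 3.71, 4.63 and 3.79, and Ccl24, a chemokine for eosinophils, from 5.82, 6.07, 5.26, 6.10 and 5.82 to 4.02, 4.63, 3.87, 5.46 and 4.20. Vehicle mice were higher than IMQ mice in all comparisons except that HFD-IMQ 4 passed HFD-vehicle 3 for Ccl24, and the changes were -2.24 ± 0.29, -1.96 ± 0.23 and -1.38 ± 0.25 (adjusted p = 2.33e-05, 7.86e-06 and 0.00103). In the same list Pf4 rose by 0.65 ± 0.14 and Stab1 by 0.66 ± 0.17 (adjusted p = 0.00581 and 0.0179), the latter losing its call, at an adjusted p of up to 0.068, without HFD-vehicle 2, HFD-vehicle 3 or HFD-IMQ 1. Of the 14 members 4 were higher and 3 lower, with 2 higher without HFD-vehicle 3 or without HFD-IMQ 1, and Mrc1 (0.33), Folr2 (0.25) and Timd4 (-0.30) did not pass.

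**Figure D3:**
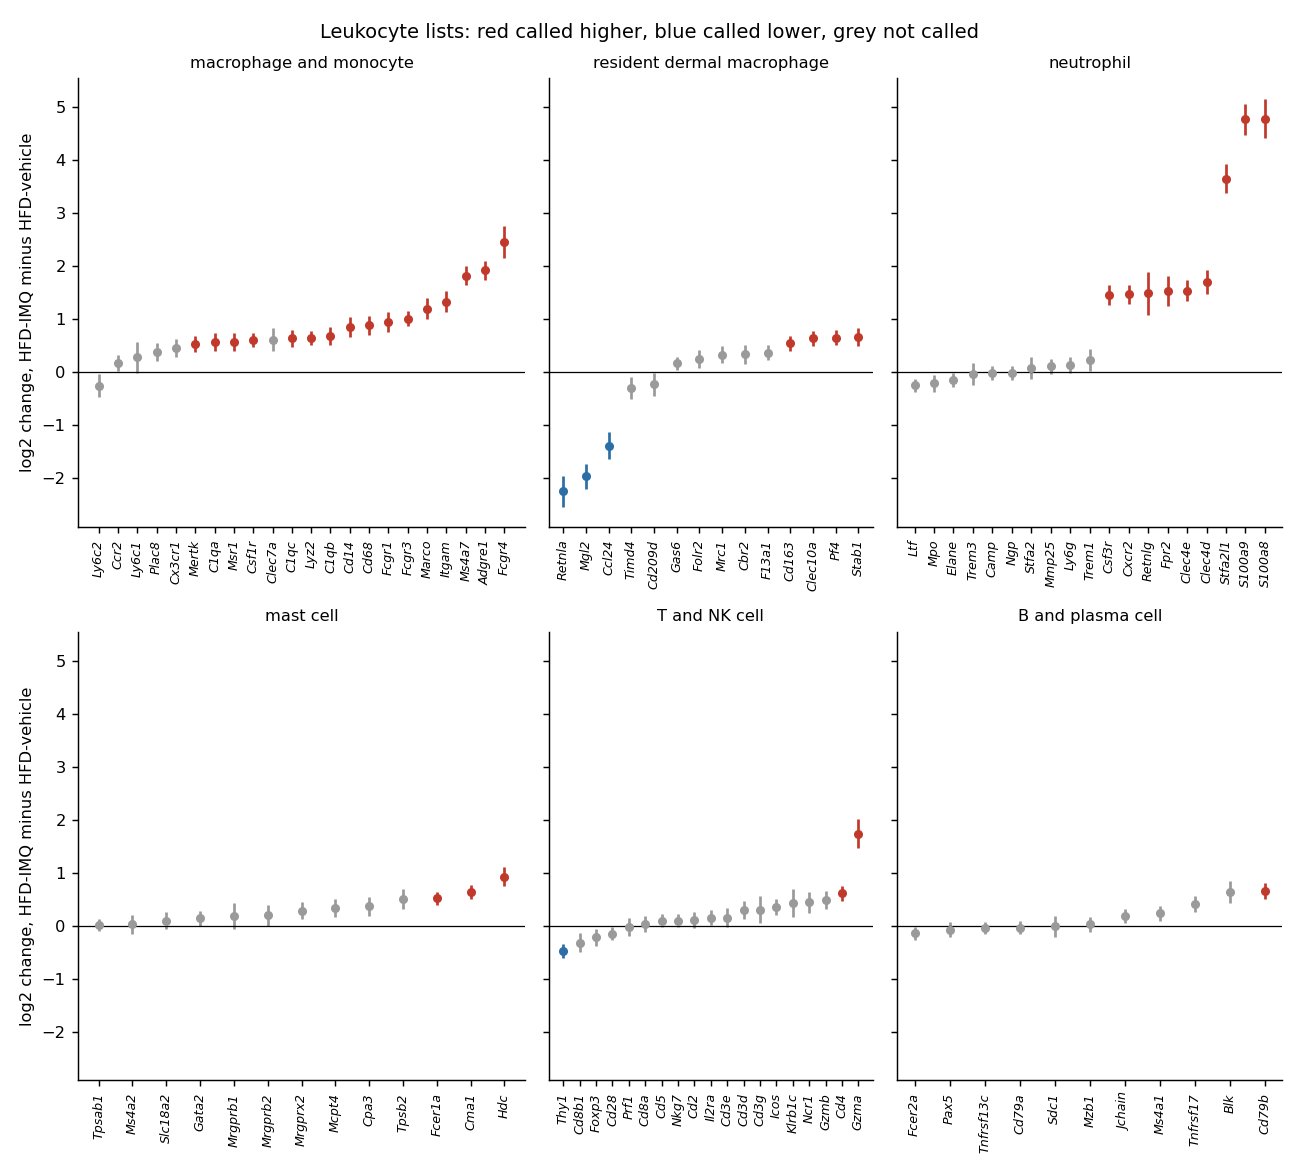
Log2 change in HFD-IMQ against HFD-vehicle of every measured member of 6 leukocyte lists, with its SE as a bar, called higher in red, called lower in blue and not called in grey. Of the macrophage list 16 of 22 members are red, while the resident dermal macrophage list spans from Retnla at -2.24 to Stab1 at 0.66.

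Neutrophil genes were called in 9 of 19 cases, all higher, and 10 members were near background in both groups. The receptors Clec4d, 3.08, 2.86, 2.39, 3.08 and 3.16 with vehicle and 5.32, 4.39, 4.86, 4.32 and 4.19 with IMQ, and Clec4e, 1.88, 1.999, 1.85, 1.92 and 2.28 with vehicle and 4.10, 3.29, 3.60, 3.29 and 3.35 with IMQ, are shared with monocytes. Cxcr2, the chemokine receptor of neutrophils (chosen after its value was seen, like Csf3r), was 3.87, 3.87, 3.66, 4.43 and 3.52 with vehicle and 5.71, 4.91, 5.22, 5.62 and 5.24 with IMQ. All 3 separated, at 1.70 ± 0.23, 1.54 ± 0.19 and 1.47 ± 0.18 (adjusted p = 4.41e-05, 1.56e-05 and 9.43e-06), and Csf3r rose by 1.46. The granule genes Ltf (-0.25), Camp (-0.02), Mpo (-0.21) and Elane (-0.14) and the lineage marker Ly6g (0.14) were near background in both groups and not called, while S100a8, S100a9 and Stfa2l1 in this list are also made by keratinocytes. Langerhans and dendritic cell genes were higher in 3 of 16 cases, with the transcription factor Irf8 at 0.81 ± 0.17 (adjusted p = 0.00357) and 1 of 16 higher without HFD-vehicle 3. MHC class II genes were called in 0 of 10 cases by limma, 4 being lower at an unadjusted p below 0.05, with 2 lower without HFD-vehicle 3, the array in which this list was lowest.

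Lymphocyte lists had few calls, and those of the mast cell list were all higher. Gzma, a granzyme of natural killer and T cells, went from 1.47, 1.81, 1.90, 1.70 and 1.81 to 2.68, 2.96, 3.60, 4.49 and 3.64, apart in all mice but low on the array (1.73 ± 0.27, adjusted p = 2.57e-04). Cd4, made by helper T cells and some macrophages, rose by 0.61 (adjusted p = 0.00813), and Cd3e (0.15), Cd8a (0.03) and Gzmb (0.48) were not called. In all 2 of 19 T and NK cell genes were higher and 1 lower. Of 13 mast cell genes 3 were higher and 0 lower (median 0.29), with Hdc, the histamine-forming enzyme, at 3.51, 3.63, 2.89, 3.63 and 3.79 with vehicle and 4.71, 4.46, 4.69, 4.26 and 3.96 with IMQ (0.93 ± 0.18, adjusted p = 0.00197) and the mast cell chymase Cma1 at 0.64 ± 0.14 (adjusted p = 0.00586). The effect on Hdc differed between diets by 1.16 (adjusted p = 0.0353), a call that ended in 8 of the 20 sets with 1 array left out (highest adjusted p = 0.074). Of 33 chemokines 5 were higher and 2 lower. Cxcl13, which attracts B cells, was 6.10, 4.90, 5.72, 5.87 and 5.39 with vehicle and 8.62, 7.53, 7.49, 8.63 and 7.85 with IMQ, with no overlap (2.43 ± 0.29, adjusted p = 7.01e-06). Ccl3, a macrophage chemokine, rose by 1.75, and Cxcl14, a chemokine made by resting epithelium, fell by 1.53 on the log2 scale (adjusted p = 0.00209 and 4.41e-05). On endothelium Vcam1, an adhesion molecule for leukocytes, rose by 1.12 ± 0.17 and Emcn by 0.87 ± 0.16 (adjusted p = 1.84e-04 and 0.00146), 2 of 20 genes, or 5 without HFD-IMQ 4.

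Hair follicle genes gave the largest falls of the comparison. Of 10 inner root sheath genes, which encode the keratins and trichohyalin of the sheath that moulds the growing hair, 9 were lower, with a list median of -4.91. Tchh, trichohyalin, was 9.87, 9.72, 11.40, 9.42 and 9.34 in vehicle mice and 6.07, 2.48, 2.41, 2.05 and 2.10 in IMQ mice. Krt71 was 9.93, 9.49, 11.39, 8.80 and 8.69 with vehicle and 5.20, 2.11, 2.20, 2.63 and 2.19 with IMQ, and Krt25 9.33, 9.21, 10.99, 8.60 and 8.38 with vehicle and 4.78, 3.45, 3.33, 2.76 and 3.11 with IMQ. Every vehicle mouse was above every IMQ mouse, HFD-vehicle 3 was the highest and HFD-IMQ 1 the highest of its group for all 3, and the other 4 IMQ mice read Tchh and Krt71 below the array medians. Mean falls were 122-fold for Tchh (-6.93 ± 0.84, adjusted p = 9.64e-06), 111-fold for Krt71 (-6.79 ± 0.75, adjusted p = 2.74e-06) and 56.3-fold for Krt25 (-5.82 ± 0.55, adjusted p = 3.91e-07). Krt27, Krt73, Krt28, Krt72 and Krt26 fell by 5.40 to 3.29 on the log2 scale, and Krt74 did not pass (-0.52). Without HFD-vehicle 3 the list still had 9 genes lower, with a median of -4.43, and without HFD-IMQ 4 also 9, with -4.80.

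**Figure D4:**
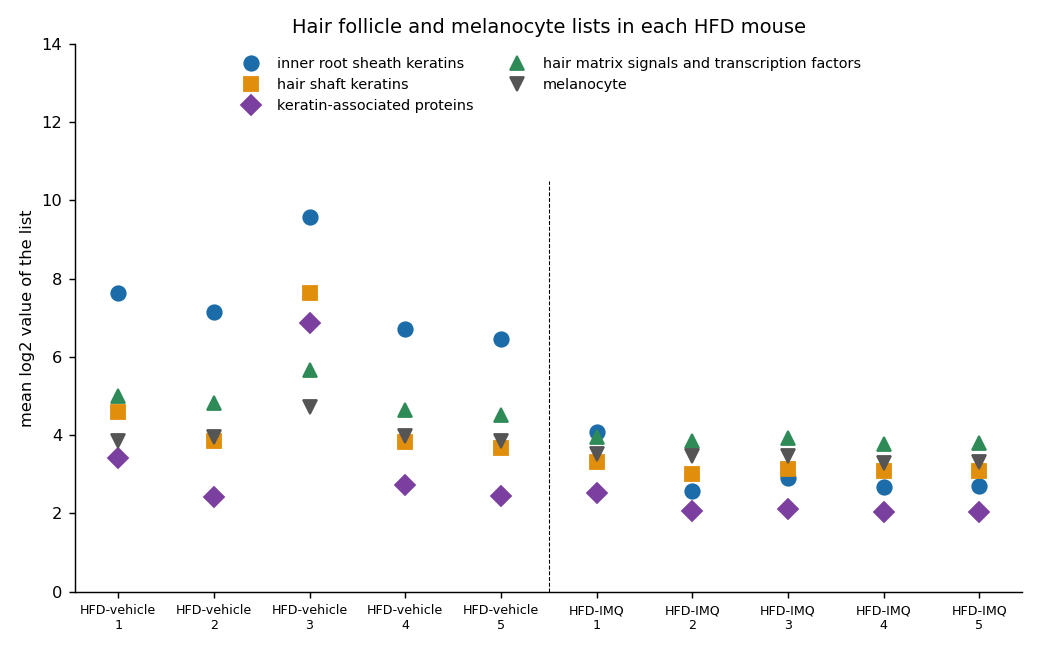
Mean log2 value of 4 hair follicle lists and the melanocyte list in each of the 10 HFD mice, vehicle left of the dashed line and IMQ right of it. HFD-vehicle 3 is the highest mouse for all 5 lists and HFD-IMQ 1 the highest IMQ mouse, and the inner root sheath level is above 6 in all vehicle mice and at most 4.07 in the IMQ mice.

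Hair shaft keratins and keratin-associated proteins, which fill the growing shaft, were more scattered. Krt35, an early keratin of the shaft, was 7.01, 6.49, 8.34, 5.84 and 5.51 with vehicle and 3.70, 3.41, 3.50, 4.14 and 3.11 with IMQ, apart in all mice (-3.07 ± 0.38, adjusted p = 1.45e-05). Krt86, a later one, read 4.61, 2.98, 8.77, 3.13 and 3.10 with vehicle and 3.21, 2.65, 2.64, 2.83 and 3.02 with IMQ, so that 1 vehicle mouse carried most of its signal, and it was not called (adjusted p = 0.193). In all 6 of 15 shaft keratins were lower (median -1.58). Without HFD-vehicle 3 there were 7, with a median of only -0.59. Of 51 keratin-associated protein genes 11 were lower (median -1.40), 17 without HFD-vehicle 3 or without HFD-vehicle 2, and 7 without HFD-IMQ 5. Their median without HFD-vehicle 3 was -0.50. Krtap4-2 fell from 6.73, 5.28, 10.20, 6.22 and 4.64 to 4.11, 1.11, 1.22, 1.76 and 1.11 (-4.76 ± 0.74, adjusted p = 2.20e-04).

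Signals and transcription factors of the hair matrix, the dividing cells at the base of a growing follicle, were lower in 18 of 31 cases and higher in 0 (median -0.65). Prr9, a proline-rich protein of the hair, was 7.60, 6.69, 9.47, 6.06 and 6.23 with vehicle and 3.58, 1.70, 2.34, 2.55 and 2.94 with IMQ. S100a3, a calcium-binding protein of the hair cuticle, was 7.92, 6.80, 9.29, 6.82 and 6.06 with vehicle and 4.002, 2.61, 2.90, 3.43 and 3.27 with IMQ. Dsg4, the hair desmoglein, was 5.67, 5.03, 7.85, 5.23 and 3.92 with vehicle and 2.33, 1.36, 1.96, 1.95 and 1.89 with IMQ. All 3 were apart, by -4.58 ± 0.54, -4.14 ± 0.42 and -3.64 ± 0.42 (adjusted p = 7.35e-06, 7.56e-07 and 5.64e-06). Padi3 (-2.37) and Mt4 (-2.63) followed. Among regulators, chosen after their values were seen, Dlx3 was lower by -1.70, Lef1 by -1.46, Msx2 by -1.34, Hoxc13 by -1.08, Bmp4 by -1.06 and Gata3 by -0.80 (largest adjusted p = 0.00275). Shh (0.11), Foxn1 (-0.52) and Wnt10b (-0.37) did not pass. In the bulge and companion layer list 7 of 16 were lower and 2 higher. Krt75, the companion layer keratin, fell from 6.37, 5.95, 8.67, 4.94 and 4.85 to 3.16, 2.54, 2.64, 2.58 and 3.10 and Krt15, a keratin of bulge stem cells and basal cells, from 7.47, 7.46, 8.19, 7.23 and 6.95 to 5.87, 6.01, 5.36, 5.68 and 6.03, both without overlap (-3.35 ± 0.47 and -1.67 ± 0.24, adjusted p = 5.59e-05 and 9.77e-05).

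Pigment genes were lower in part. Tyrp1, a melanin synthesis enzyme, was 5.88, 5.72, 7.46, 5.57 and 4.84 with vehicle and 3.77, 3.70, 3.32, 3.43 and 3.27 with IMQ, and Dct, another such enzyme, 5.59, 5.77, 7.02, 5.87 and 5.30 with vehicle and 4.20, 3.66, 3.50, 3.40 and 3.34 with IMQ. Neither overlapped (-2.40 ± 0.34 and -2.29 ± 0.35, adjusted p = 7.19e-05 and 1.59e-04), and Pmel, of the melanosome matrix, fell by 1.51. Mitf (0.11), Kit (0.01), Sox10 (-0.05) and Mlana (0.01), which also mark melanocytes, did not pass, so 5 of 14 list members were lower. HFD-vehicle 3 again had the highest list level, 4.73.

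Sebaceous gland genes, which make the wax and fatty esters of sebum, were lower in 7 of 18 cases (median -0.80). Scd3, a desaturase of the gland, was 7.06, 8.44, 8.44, 7.20 and 7.06 with vehicle and 4.67, 4.99, 4.90, 4.70 and 5.73 with IMQ. Mc5r, the melanocortin receptor of sebocytes, was 6.09, 6.07, 6.52, 5.43 and 5.31 with vehicle and 3.83, 4.52, 3.80, 4.81 and 4.56 with IMQ. Both separated, by -2.64 ± 0.34 and -1.58 ± 0.25 (adjusted p = 2.26e-05 and 2.58e-04), and Elovl5 fell by 1.23. Elovl3 (-0.89), Awat1 (-1.30) and Krt79 (-0.58) did not pass, and 4 genes were lower without HFD-vehicle 1 or without HFD-IMQ 3. Of adipocyte genes 2 of 18 were lower, leptin and Mest. Lep read 7.92, 8.73, 7.60, 7.84 and 8.27 with vehicle and 6.12, 6.43, 5.92, 7.39 and 5.41 with IMQ, with HFD-IMQ 4 the highest IMQ mouse (-1.82 ± 0.45, adjusted p = 0.0151), and lost its call without HFD-vehicle 2 or HFD-IMQ 5, at an adjusted p of up to 0.055. Adiponectin, Adipoq, was 6.34, 6.08, 5.56, 6.08 and 6.72 with vehicle and 5.73, 5.71, 6.24, 7.33 and 5.42 with IMQ, overlapping and not called (-0.07).

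Dermal matrix genes were lower in 8 of 22 cases (median -0.44). Fn1, fibronectin, was 9.10, 9.42, 9.10, 9.57 and 9.52 with vehicle and 8.59, 9.07, 7.89, 8.23 and 8.18 with IMQ, and Col1a2, a chain of type I collagen, 10.46, 10.52, 10.37, 10.55 and 10.89 with vehicle and 10.07, 10.20, 9.61, 9.06 and 9.74 with IMQ. Groups did not overlap for either, at -0.95 ± 0.19 and -0.82 ± 0.19 (adjusted p = 0.00207 and 0.00923), and HFD-IMQ 4 was the lowest mouse for Col1a2. Col14a1 fell by 0.80 and Mfap5 by 0.77, and Col1a1 did not pass (-0.75 ± 0.23, adjusted p = 0.0631). Wound matrix and protease genes rose in 5 of 16 cases, or in 3 without HFD-vehicle 2, HFD-vehicle 3 or HFD-IMQ 3. Tnc, tenascin C of healing wounds, went from 4.86, 5.19, 5.84, 4.73 and 5.25 to 7.01, 6.65, 6.88, 5.75 and 6.47, with HFD-vehicle 3 at 5.84 above HFD-IMQ 4 at 5.75 (1.38 ± 0.23, adjusted p = 3.90e-04). The collagenase Mmp8, carried by neutrophils, rose by 1.11 and stromelysin Mmp3 by 1.06, whereas Mmp9 (0.46) and Mmp13 (-0.02) did not pass.

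Several programmes had few calls or none. Of 36 cell cycle genes 0 were higher and 1 lower by limma, and 0 and 3 at an unadjusted p below 0.05. The lower gene was Cenpf, and its call ended in 7 of the 10 sets with 1 HFD array left out (highest limma adjusted p = 0.139). The sets without HFD-vehicle 3 and without HFD-IMQ 4 were among them. Mki67 was not called (-0.57), nor was Top2a, at 5.80, 6.28, 5.99, 5.94 and 5.90 with vehicle and 5.56, 5.81, 5.67, 5.37 and 5.75 with IMQ (-0.35 ± 0.17, adjusted p = 0.31). The 16 circadian clock genes and 26 immediate-early genes gave 0 calls by limma, as did 7 nerve and Schwann cell genes, with 3, 1 and 1 of them at an unadjusted p below 0.05. Fatty acid and triglyceride synthesis gave 1 lower gene of 20, Elovl6, and cholesterol synthesis and uptake 1 lower of 17, Msmo1 (-0.80). Respiratory chain genes rose in 3 of 23 cases (median 0.31), with Ndufa4 at 9.12, 9.15, 9.24, 9.27 and 9.19 with vehicle and 9.43, 9.54, 9.77, 9.95 and 9.73 with IMQ (0.49 ± 0.11, adjusted p = 0.00604). The highest list level was that of HFD-IMQ 4, 7.79 against 6.72 to 7.09 in the other IMQ mice. Without HFD-IMQ 4 the list median was 0.08 and 2 genes were higher.

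The same treatment on control diet was then set beside these values, with the difference between diets tested as an interaction term in the same fit. On control diet 868 genes were higher and 1556 lower, 3.91% and 7.02% of those tested and 10.9% in both directions. Of the 809 genes higher on high fat diet 339 were also called higher on control diet, 41.9% of the former and 39.1% of the latter, and of the 497 lower genes 192 were shared, 38.6% and 12.3%. A difference between diets was called for 147 genes, 0.663% of those tested, 105 with a higher and 42 with a lower term on high fat diet. Of the 809 higher genes 31 had a called difference and of the 497 lower genes 21. For most genes called on one diet and not on the other, a difference between diets was therefore not shown. Leaving out single arrays gave 57 (without CD-IMQ 4) to 198 differences, with other low counts without CD-vehicle 3 (83), CD-IMQ 5 (75), HFD-vehicle 1 (60), HFD-IMQ 1 (95), HFD-IMQ 2 (61) and HFD-IMQ 5 (94).

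**Figure D5:**
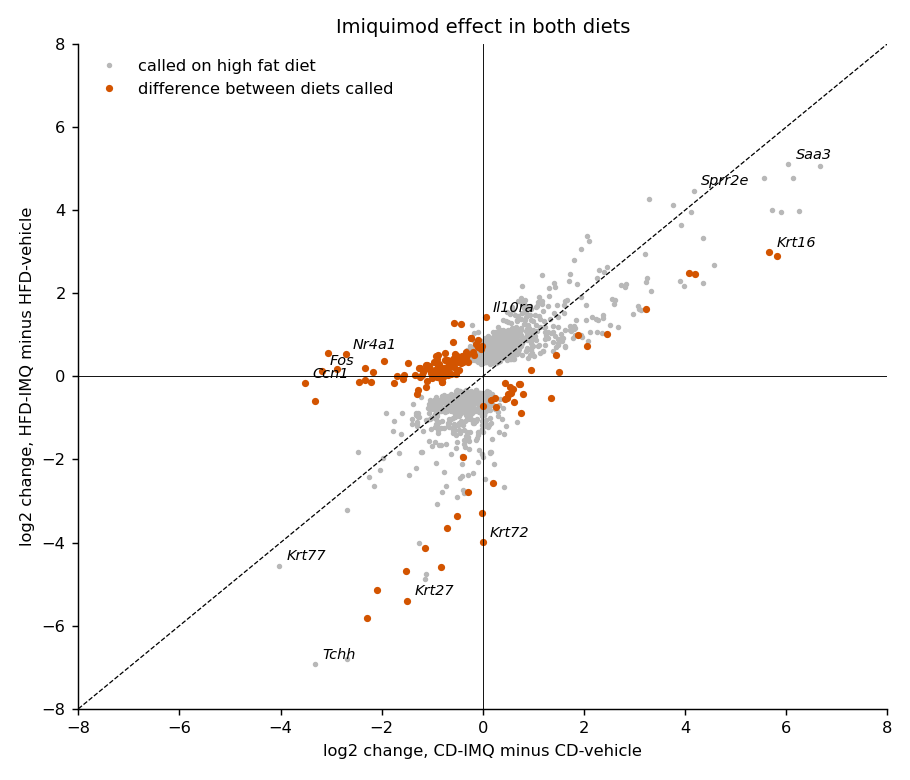
Log2 change with imiquimod on control diet (x) and on high fat diet (y) of the 1306 genes called on high fat diet (grey) and the 147 genes with a called difference between diets (orange), with the line of equal change dashed. Immediate-early genes such as Fos and Ccn1 lie near 0 on the y axis and below -2 on the x axis, and keratins such as Krt27 and Krt72 lie far below the line.

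Immediate-early genes, transcription factors and phosphatases that are switched on soon after a stimulus, were the 10 largest differences toward a higher value on high fat diet, while hair genes had the largest in absolute size. Fos was 5.63, 5.83, 5.89, 3.92 and 5.93 with vehicle and 6.36, 5.83, 5.71, 4.06 and 5.93 with IMQ on high fat diet. In CD-vehicle mice it was 8.05, 8.33, 8.55, 8.06 and 7.10 and in CD-IMQ mice 5.84, 4.89, 4.68, 3.97 and 4.87. The high values were those of CD-vehicle mice, and the change was 0.14 ± 0.41 on high fat diet against -3.17 ± 0.41 on control diet, a difference of 3.31 (adjusted p = 0.00966). Ccn1 (difference 3.36), Nr4a1 (3.24), Dusp1 (3.05) and Egr1 (2.72) differed in the same direction, with adjusted p of at most 0.0123, and 14 of the 26 list members had a called difference. The list's mean level was 6.09 to 7.35 in CD-vehicle mice. It was 5.28 to 5.73 with vehicle and 5.09 to 5.76 with IMQ on high fat diet, and 5.26 to 5.58 in CD-IMQ mice.

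Inner root sheath keratins fell more on high fat diet. Krt27 was 9.32, 8.83, 11.10, 8.31 and 8.20 with vehicle and 5.01, 3.26, 3.49, 3.54 and 3.44 with IMQ on high fat diet, and 6.21, 6.68, 3.22, 5.11 and 4.83 in CD-vehicle and 3.42, 3.84, 3.12, 3.94 and 4.24 in CD-IMQ mice. Krt72 was 6.80, 6.12, 9.96, 5.87 and 5.18 with vehicle and 3.37, 2.41, 3.05, 2.61 and 2.54 with IMQ on high fat diet, and 3.12, 3.20, 2.89, 2.90 and 2.55 and then 2.82, 2.98, 2.62, 2.86 and 3.37 on control diet. IMQ values of the diets overlapped, and every HFD-vehicle mouse lay above every CD-vehicle mouse, with differences of -3.91 for Krt27 and -3.99 for Krt72 (adjusted p = 0.0184 and 0.0131). Both passed when any 1 of the 20 arrays was left out, and without HFD-vehicle 3 the differences were -3.42 and -3.20. Krt25, Krt26, Krt28 and Krt73 had called differences of -3.53 to -3.05 that ended when single arrays were left out, 5 to 13 of the 20 depending on the gene. S100a3 (-2.99) passed throughout, while Prr9 (-3.75) ended without CD-IMQ 5, HFD-vehicle 1 or HFD-IMQ 2 and Dsg4 (-2.93) without HFD-vehicle 1 or HFD-IMQ 2, at adjusted p of at most 0.057. Tchh and Krt71 did not pass (-3.62 and -4.11, adjusted p = 0.132 and 0.0726).

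A smaller rise on high fat diet was called for few envelope genes: 1 of 6 LCE3, 1 of 12 SPRR and 1 of 32 terminal differentiation genes. In these 3 lists 0 genes had a called term toward a higher value. Among SPRR genes without a called difference, the term was positive for Sprr2e (0.29) and Sprr2b (0.36) and negative for Sprr2d (-1.73). The LCE3 list mean was 3.44 on high fat and 2.64 on control diet with vehicle, and 6.36 and 5.93 with IMQ. For the wound keratin Krt16 these means were 6.55 and 3.46 with vehicle and 9.54 and 9.12 with IMQ. The difference in vehicle levels was not tested. Rptn was 3.96, 5.12, 3.76, 5.77 and 4.75 in CD-vehicle and 10.43, 10.44, 10.58, 10.60 and 10.45 in CD-IMQ mice, a rise of 5.83 ± 0.29 against 2.89 ± 0.29 on high fat diet (difference -2.94, adjusted p = 0.00136). Sprr1b (-1.72) and Lce3c (-1.61) also rose less (adjusted p = 0.00916 and 0.0201). Krt16 had a difference of -2.67 (adjusted p = 0.0387) that ended in 16 of the 20 sets with 1 array left out, with a highest adjusted p of 0.078, and the call held without CD-vehicle 3, CD-vehicle 4, CD-IMQ 2 or HFD-vehicle 3. S100a8, S100a9, Saa3, Sprr2e and Adgre1 gave no called difference (-1.35, -0.80, -0.93, 0.29 and 0.80, adjusted p = 0.211, 0.345, 0.347, 0.787 and 0.129). In the Toll-like receptor list Tnfaip3, a brake on NF-kB, had a difference of 1.25 (adjusted p = 0.0154), with changes of 0.04 on high fat and -1.21 on control diet. Plk1, a kinase of mitosis, was 5.06, 4.66, 4.64, 4.52 and 4.47 with vehicle and 4.26, 4.26, 4.43, 4.15 and 4.19 with IMQ on high fat diet. On control diet it was 4.25, 4.23, 3.53, 3.75 and 3.75 with vehicle and 5.01, 4.36, 4.91, 4.73 and 4.48 with IMQ, so that its changes of -0.41 and 0.80 differed (-1.21, adjusted p = 0.00966).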

How the data were processed

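Abdominal skin RNA from 10 mice, 5 per group, was measured on Affymetrix arrays, with the 10 control diet arrays of the series kept in the fit. The deposited values are log2 values made by the authors with RMA in the affy package, per the submitters' processing notes, which give no versions. Robust multi-array averaging shrinks differences near background and assumes similar distributions across arrays. The sources used here give no genome build and no scan batches, and do not say whether the arrays were normalised in 1 run. Of 41345 features 23521 carried exactly 1 symbol, 1814 several and 16010 none, and of the 22180 genes 1082 had more than 1 feature. Of these genes 22139 were in the RefSeq table. No dim genes were left out.

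A linear model of group means (limma 3.58.1, R 4.3.3) used all 20 arrays, which share 1 estimate of spread per gene, with eBayes and Benjamini-Hochberg adjustment over all genes tested, and genes were called at an adjusted p below 0.05. Changes are HFD-IMQ minus HFD-vehicle, followed by their standard error. The mice are labelled biological replicates, and their number limits the precision: the median SE of a change was 0.136. On simulated data for this comparison with 22180 genes, 16 of 50 changes of log2 0.5, 44 of 50 of log2 1 and 50 of 50 of log2 2 were recovered, with 2 false calls. The simulated noise was normal and independent for each gene, without outlying arrays or genes that move together. Error rates in the measured data may therefore differ.

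The members and 51 gene lists, 878 measured genes, were chosen with earlier results of these data known. Named genes were, among calls with no overlap between groups, the 12 that rose most and the 12 that fell most (without small RNAs, receptor families and predicted genes), in each list the 5 called members that changed most, 24 panel genes, and for the difference between diets the 10 largest terms in each direction. Lists are described by counts and medians, without a test of the list. Alternatives were a replicate block, the 10 arrays alone, quantile normalization, median centring, a mean of at least 4, feature means, array weights, trend with robust eBayes, a change of at least 1, and each array left out; leaving out HFD-vehicle 3 and HFD-IMQ 4 together was chosen after seeing the data. Tables and figures used Python 3.11.15, pandas 2.3.3, numpy 2.4.6 and matplotlib 3.10.9. Promoter sequences are RefSeq's, on GRCm38.p6.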

Additional observations from a re-analysis of the deposited data

Results flagged for a closer look

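In each list's mean level by group, 14 of 102 tests found the highest or lowest of 5 mice far from the other 4, where chance flags about 1 in 20 groups. HFD-vehicle 3 stood high for hair shaft keratins (7.62), keratin-associated proteins (6.88), melanocyte genes (4.73), EGF receptor ligands (4.97) and heat shock genes (6.90). It stood low for resident dermal macrophage (6.83), Langerhans and dendritic cell (4.44) and MHC class II genes (4.84). HFD-IMQ 1 stood high for inner root sheath keratins (4.07) and keratin-associated proteins (2.53). HFD-vehicle 1 was apart for skeletal muscle (7.78) and lipid-associated macrophage genes (7.79), HFD-IMQ 2 was low for neutrophil genes (3.68), and HFD-IMQ 4 was apart for cell cycle genes (4.52). Among 346 named genes by group, 25 had 1 mouse apart in this way. What set these mice apart was not tested.

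The effect of imiquimod differed between diets by the interaction term of the limma fit. The largest terms toward a higher value on high fat diet were those of Ccn1 (3.36), Fos (3.31), Nr4a1 (3.24), Dusp1 (3.05), Egr1 (2.72), Zfp36 (2.51), Atf3 (2.34), Ier2 (2.31), Fosb (2.28) and Btg2 (2.23), all immediate-early genes. The largest terms toward a lower value were those of the inner root sheath keratins Krt72 (-3.99), Krt27 (-3.91), Krt25 (-3.53), Krt26 (-3.28), Krt28 (-3.17) and Krt73 (-3.05), the hair genes Prr9 (-3.75), S100a3 (-2.99) and Dsg4 (-2.93), and repetin, Rptn (-2.94). Their adjusted p lay between 0.00124 and 0.0436. The Ier2 call ended without CD-IMQ 4, CD-IMQ 5, HFD-vehicle 1 or HFD-IMQ 2, with a highest adjusted p of 0.0626.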

How the results depend on the processing

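The 1306 genes called on high fat diet became 1209 with the replicate block (747 higher, 462 lower), and the difference between diets went from 147 to 124 genes with it. Same-numbered mice of both HFD groups correlated at -0.0978 to 0.0692 in their deviations, 0 of 5 above 0.1. Over all 30 same-numbered pairs of the 20 arrays the range was -0.217 to 0.32, with 4 above 0.1. Whether the numbers share more than a label was not tested. A change of at least 1 log2 unit left 355 genes, 200 higher and 155 lower, and 80 differences between diets, while a mean of at least 4 raised the latter to 308. Leaving out each of the 20 arrays gave 990 to 1370 called genes (601 to 834 higher, 361 to 536 lower) and 57 to 198 differences. The 10 arrays alone gave 1016 called genes. No named gene changed direction between the main fit and an alternative run if it was called in either. Il6, which was not called, went from 0.002 to -0.016 without HFD-vehicle 3. With the 10 arrays alone 20 named results lost their call, and without HFD-vehicle 3 and HFD-IMQ 4 together 16 did. A mean of at least 4 left fewer keratin-associated (2), LCE3 (2), SPRR (4), hair shaft (3) and neutrophil (5) genes called, since fewer were tested. The 10 arrays alone gave 3 keratin-associated, 3 hair shaft, 4 bulge and 4 Toll-like receptor calls, and trend with robust eBayes 6 keratin-associated. Signal over background limits genes near the array medians, where 207 list genes had at least 1 group mean.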

Other observations

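Outside the gene lists, 123 genes rose and 89 fell by at least 1 log2 unit on high fat diet, and those named here were chosen after their values were seen. Kallikreins, serine proteases that cut the links between corneocytes, were higher in 6 of 13 measured cases and lower in 0, and no HFD array changed that count when left out. Klk13 was 5.44, 4.42, 4.14, 5.41 and 4.49 with vehicle and 7.46, 7.05, 6.98, 6.27 and 7.49 with IMQ, and Klk9 6.38, 5.67, 5.02, 6.12 and 5.79 with vehicle and 8.07, 7.62, 7.31, 7.36 and 7.91 with IMQ, without overlap (2.27 ± 0.25 and 1.86 ± 0.20, limma adjusted p = 3.20e-06 and 2.44e-06). Of 7 Tmprss11 genes, a cluster of epithelial membrane proteases, 4 were higher, with Tmprss11a going from 2.03, 2.16, 1.95, 2.15 and 2.14 to 4.91, 4.09, 4.06, 3.74 and 5.17 (2.31 ± 0.20). The C-type lectin cluster Clec4 had 6 of 11 genes higher, the Cd300 receptors 6 of 9 and the Ms4a genes 6 of 20, families with members expressed on myeloid cells. These counts are of whole families and include the list members Clec4d, Clec4e and Ms4a7 given above. Clec4n, which encodes dectin-2, was 5.59, 5.37, 4.52, 5.84 and 5.62 with vehicle and 7.32, 7.42, 7.64, 6.58 and 7.15 with IMQ (1.83 ± 0.20, adjusted p = 2.74e-06), and Chil3, a chitinase-like protein of macrophages and neutrophils, 2.75, 3.27, 3.22, 2.73 and 3.16 with vehicle and 5.93, 5.84, 6.04, 5.55 and 5.76 with IMQ (2.80 ± 0.23, adjusted p = 6.71e-08). Il10ra, the receptor chain of interleukin-10, rose from 4.09, 3.72, 3.76, 3.96 and 3.47 to 5.73, 5.22, 5.44, 4.69 and 5.06 and changed by 0.06 on control diet, a difference of 1.37 (adjusted p = 0.0245) that ended without CD-IMQ 4 (0.051). Gpr65, a proton-sensing receptor of leukocytes, went from 4.12, 3.90, 4.07, 3.97 and 3.80 to 5.69, 5.10, 4.99, 4.78 and 5.74 and changed by -0.57 on control diet (difference 1.86, adjusted p = 0.00183).

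Among the falls outside the lists Wif1, a secreted inhibitor of Wnt ligands, was 6.28, 6.24, 5.40, 5.77 and 5.81 with vehicle and 3.82, 4.40, 3.59, 3.60 and 3.72 with IMQ (-2.07 ± 0.24, adjusted p = 7.01e-06), and Lrrc15 6.86, 6.85, 8.57, 6.10 and 6.02 with vehicle and 4.78, 3.93, 3.62, 4.11 and 4.06 with IMQ (-2.78 ± 0.38, adjusted p = 4.14e-05). Neither overlapped, and HFD-vehicle 3 was the lowest vehicle mouse for the former and the highest for the latter. Fbp1, a gluconeogenic enzyme, fell from 5.65, 5.28, 6.87, 4.50 and 4.01 to 2.54, 2.54, 2.65, 2.28 and 2.43, by -2.77 ± 0.36 against -0.29 on control diet (difference -2.48, adjusted p = 0.0245, no longer called without CD-IMQ 4 or HFD-vehicle 1). The leptin receptor, Lepr, was 6.19, 6.65, 5.67, 6.60 and 6.08 with vehicle and 4.34, 5.25, 4.44, 4.59 and 4.63 with IMQ (-1.59 ± 0.25, adjusted p = 2.39e-04). Of 483 microRNA genes on the array 1 was higher and 0 lower.

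Brown fat genes read high in 2 of the 5 HFD-IMQ mice. Ucp1 was 8.14 in HFD-IMQ 3 and 9.58 in HFD-IMQ 4, against 2.62 to 3.18 in the other 3, and Cox8b, a respiratory subunit of brown fat and muscle, was 7.58 and 9.20 there against 5.41 to 5.92. Neither was called (2.74 ± 1.05 and 1.09 ± 0.52, adjusted p = 0.152 and 0.294).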
